A study of Mus musculus with 17 samples.

Results

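Accessible chromatin regions assigned to odorant, vomeronasal and trace amine receptor genes were examined in mouse B cells with and without the de novo DNA methyltransferases. The members were the autosomal regions of the deposited ATAC-seq table whose nearest transcription start belongs to an Olfr, Vmn1r, Vmn2r or Taar gene. This rule gave 191 of 66177 regions, of which 187 lay outside a receptor and Trim gene interval of chromosome 7, whose regions span chr7:110910726-111656858, and 4 inside it, and the interval is described apart at the end. A further receptor region, not on an autosome, was left out. The 187 regions comprised 115 of odorant receptors (Olfr), 25 of type 1 vomeronasal receptors (Vmn1r), 46 of type 2 vomeronasal receptors (Vmn2r) and 1 of a trace amine-associated receptor (Taar).

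ATAC-seq, in which the Tn5 transposase inserts adapters into open chromatin, was performed on naive B cells (nB, B220+ Fas- GL7-, from lymph nodes of unimmunized male mice), phycoerythrin-specific germinal center B cells (GCB, B220+ Fas+ GL7+ PE+, from lymph nodes after immunization with phycoerythrin in complete Freund's adjuvant, in pools of either sex) and bone marrow plasma cells (BMPC, CD138+, from immunized female mice). Dnmt3-sufficient mice (C, Dnmt3a fl/fl Dnmt3b fl/fl without Cre) provided 3 nB, 2 GCB and 3 BMPC libraries, and Dnmt3-deficient littermates (KO, Dnmt3a fl/fl Dnmt3b fl/fl with Cre) provided 2, 4 and 2. Both genotypes carry the floxed alleles on a mixed B6;129S4 background, and only KO mice carry the Cre, which is expressed in the B lineage. Accessibility is given as reads in a region per 1000000 reads in all regions (RPM), and sequencing depth ranged from 4104875 to 6079018 reads in regions for nB, from 907959 to 2280954 for GCB and from 5357687 to 8232313 for BMPC. A count of 3 reads served as the floor of measurement and corresponded to 0.364 to 3.30 RPM across libraries, so that low values are least certain in GCB. Sex and immunization differ with cell type and cannot be told apart from it.

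Olfactory and vomeronasal receptors are G protein-coupled receptors of sensory neurons of the nose. They form the largest gene families of the mouse, lie in clusters on most chromosomes, and each olfactory neuron expresses a single receptor allele while the others are held in heterochromatin. Vmn1r and Vmn2r receptors act in the vomeronasal organ, which reads pheromones, and Taar receptors detect amines. In olfactory neurons the enhancers of odorant receptor genes are bound by the homeobox factor LHX2 and by EBF proteins, and EBF1 is also a factor of the B lineage.

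The central 300 bases of 5 regions are shown because the comparisons that follow turn on them. The first, in the chromosome 7 interval, carried the only genotype call that limma made among receptor regions, and the others were the most accessible member and members with large changes between cell types. All are on the plus strand of mm9, and capitals mark matches on either strand to the listed motif letters.
Olfr630, chr7:110911142-110911441: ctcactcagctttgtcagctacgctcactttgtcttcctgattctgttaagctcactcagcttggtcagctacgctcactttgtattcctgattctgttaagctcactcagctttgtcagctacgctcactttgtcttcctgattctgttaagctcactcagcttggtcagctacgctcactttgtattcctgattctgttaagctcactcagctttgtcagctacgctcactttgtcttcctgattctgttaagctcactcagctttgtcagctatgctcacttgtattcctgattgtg
Vmn2r87, chr10:129979161-129979460: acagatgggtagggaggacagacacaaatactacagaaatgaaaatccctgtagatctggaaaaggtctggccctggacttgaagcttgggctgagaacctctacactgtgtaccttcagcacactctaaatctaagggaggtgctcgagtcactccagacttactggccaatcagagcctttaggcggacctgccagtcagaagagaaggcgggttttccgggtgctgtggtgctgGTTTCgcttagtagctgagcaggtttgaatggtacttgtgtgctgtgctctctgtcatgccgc
Vmn2r96, chr17:18695665-18695964: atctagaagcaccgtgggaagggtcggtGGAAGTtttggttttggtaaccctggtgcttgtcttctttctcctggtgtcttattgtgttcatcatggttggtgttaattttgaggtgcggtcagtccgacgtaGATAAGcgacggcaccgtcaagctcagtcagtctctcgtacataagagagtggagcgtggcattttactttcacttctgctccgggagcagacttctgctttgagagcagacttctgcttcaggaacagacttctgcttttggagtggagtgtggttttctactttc
Vmn2r89, chr14:52102766-52103065: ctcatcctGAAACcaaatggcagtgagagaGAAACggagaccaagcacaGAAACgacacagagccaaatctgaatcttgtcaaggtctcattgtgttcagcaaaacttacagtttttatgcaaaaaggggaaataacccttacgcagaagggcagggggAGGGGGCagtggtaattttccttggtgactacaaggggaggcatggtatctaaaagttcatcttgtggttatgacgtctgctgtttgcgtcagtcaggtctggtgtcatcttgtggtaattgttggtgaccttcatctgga
Vmn1r33, chr6:66545796-66546095: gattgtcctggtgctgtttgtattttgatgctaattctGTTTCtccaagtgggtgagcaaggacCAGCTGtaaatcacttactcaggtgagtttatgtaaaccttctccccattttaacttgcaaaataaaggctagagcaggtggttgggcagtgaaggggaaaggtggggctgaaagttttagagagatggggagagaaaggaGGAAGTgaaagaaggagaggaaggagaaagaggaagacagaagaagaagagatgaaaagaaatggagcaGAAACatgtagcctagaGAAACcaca

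The Olfr630 sequence is a tandem repeat. Shifted against itself by 102 bases, it matched at 184 of 198 positions, or 92.9%, whereas the best shift of the other 4 sequences matched at 31.96% to 39.5% of positions. In the Olfr630 region, 11.7% of the 50-base words occur once in mm9, so that reads from it could come from any copy. The Olfr630 sequence held 5 CpG dinucleotides and none of the other motifs searched. The Vmn2r89 and Vmn1r33 sequences each held GAAAC, the core of interferon regulatory factor sites, at 3 places, and the Vmn2r87 sequence at 1. The Vmn2r96 and Vmn1r33 sequences each held 1 match to GGAAGT, the core bound by PU.1.

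Few receptor genes had an accessible region. Of 1688 autosomal receptor gene names in the GENCODE vM1 annotation, 117 (6.93%) were the nearest gene of a region, with the interval included. The share was 6.20% of 1241 Olfr, 7.51% of 253 Vmn1r, 11.2% of 178 Vmn2r and 6.25% of 16 Taar names. Outside the interval the 187 regions fell to 113 genes on 18 chromosomes, 75 of the genes had a single region and Olfr266 had the most, 10. Chromosomes 7, 6 and 17 held 29, 25 and 22 of them.

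Most of these regions were not at the receptor genes themselves. The median distance to the receptor's start was 14.5 kb (quartiles 7.08 and 33.6 kb) against 11.4 kb for all regions of the table, 119 of the 187 lay beyond 10 kb and 10 within 1 kb. Promoter annotations covered 13 (6.95%) against 21.7% of all regions, 12 lay in exons and 17 in introns. For 31 of the 187 the nearest annotated transcript was that of another gene. The name of a receptor therefore states which start lies closest in the authors' annotation and not that the region acts on that receptor.

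The receptor regions were narrow, low in CpG and often repeated. Their median width was 401 bases against 510 for all regions, their median GC content 44.5% against 48.9% and their median ratio of observed to expected CpG 0.190 against 0.264. At least 90% of the 50-base words occurred once in mm9 in 120 of the 187 (64.2%), compared with 93.4% of 656 other regions taken at regular intervals from the table. In 37 fewer than 50% of the words were unique, in 30 between 50% and 90%, and in 15 none was, so that reads of these members may belong to paralogous copies.

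Short motifs were counted on both strands in the central 300 bases, as a description of sequence and not of binding. The shares were not adjusted for base composition, and median GC content was 44.5% against 48.9% as given above. TAATTA, the core of homeobox sites such as that of LHX2, was present in 7.49% of receptor regions and 4.95% of the 65893 regions on named chromosomes. For CCCNNGGG, the palindrome of EBF proteins, the shares were 9.63% and 12.1%. The octamer ATGCAAAT, a site of OCT factors, was found in 6.95% against 3.96%, and GATAAG, read by GATA factors, in 11.2% against 6.96%. CAGCTG, an E-box of the B lineage factor E2A, was found in 12.8% against 20.6%, and AGGGGGC, part of the CTCF site, in 4.81% against 8.89%. GGAAGT (33.2% against 30.3%), GAAAC (57.2% against 55.4%) and TGANTCA, the AP-1 site (8.56% against 9.18%), stood near the share of all regions. At least 1 CpG was present in 88.8% against 95.1%. GGAAGT and GAAAC can overlap by their shared bases, and matches were counted for each motif apart.

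Accessibility of the receptor regions was low. Their median over all libraries was 3.42 RPM (quartiles 2.12 and 6.14) against 5.99 for all regions, 26 (13.9%) reached 10 RPM against 34.8% of all regions, and 7 had a mean below 1 RPM. All 187 were tested, with no filter on low values. Together they received 0.127% ± 0.00133 of the reads in nB (SD, n = 3), 0.145% ± 0.00861 in GCB (n = 2) and 0.0881% ± 0.00138 in BMPC (n = 3) of C mice. In KO libraries the shares were 0.123% ± 0.00377 (n = 2), 0.157% ± 0.00261 (n = 4) and 0.0873% ± 0.000912 (n = 2). The order of GCB, nB and BMPC was the same in both genotypes, and the ranges given by the SDs did not overlap between cell types.

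**Figure D1:**
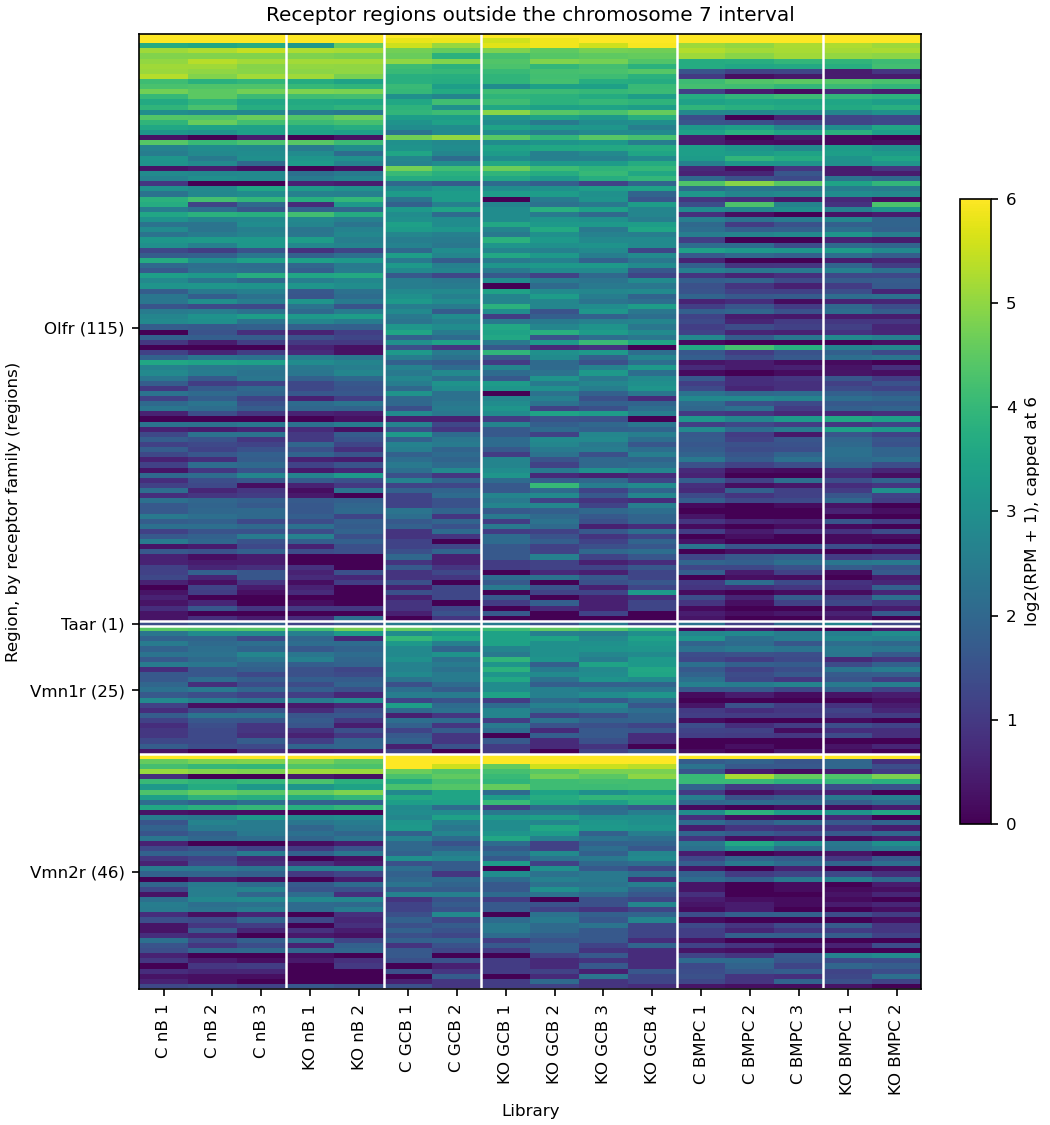
Accessibility of the 187 receptor regions in the 16 libraries. Each row is a region and each column a library, ordered by group, grouped by family, and color gives log2(RPM + 1) from 0 (dark) to 6 or more (yellow). The BMPC columns hold the most dark rows, and receptor regions took 0.0881% of the reads in C BMPC against 0.127% in C nB.

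A few members were far more accessible than the rest. RPM is not scaled to the width of a region. The most accessible lay 44.4 kb from Vmn2r87, at chr10:129978801-129979819, with a mean of 115.5 RPM, which ranked 259 of 66177. It measured 93.5, 107 and 95.7 RPM in C nB, 132 and 155 in C GCB and 85.2, 89.95 and 85.0 in C BMPC. Its GCB values lay above those of the other cell types, by 0.53 ± 0.11 over nB (log2 difference ± SE, limma adjusted p = 0.000175) and with a fall of 0.72 from GCB to BMPC (adjusted p = 2.24e-06), both smaller than the 2-fold change required for a call.

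The next regions by level were named for Olfr1423 and Olfr750, both odorant receptors. The Olfr1423 region, at chr19:12085555-12087194, had a mean of 80.4 RPM, but its nearest transcript is that of Osbp, the oxysterol-binding protein. The Olfr750 region, at chr14:51684257-51685307, had a mean of 68.8 RPM, with 78.9, 73.1 and 70.9 RPM in C nB, 54.5 and 56.7 in C GCB and 79.3, 77.7 and 78.8 in C BMPC. Both differed by less than 2-fold between cell types. The 5 most accessible regions also included those of Vmn2r96 and Olfr291, which changed between cell types as described below.

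The first comparison between cell types asked which receptor regions differ between nB and GCB. A region was called when the limma test on log2(RPM + 1), adjusted over all 66177 regions by the method of Benjamini and Hochberg, gave an adjusted p of at most 0.01 with a change of at least 2-fold. The limma differences on the log2 scale are of RPM + 1 and understate the change of low regions. In C libraries 26 receptor regions rose and 15 fell, or 41 of 187, and among all regions 14.2% rose and 8.47% fell. The 41 calls became 25 without C GCB replicate 2 and 13 with a pseudocount of 5 RPM. The median difference was 0.34 on the log2 scale for the receptor regions and 0.050 for all regions. Quantile normalization, which gives all libraries the same distribution of values, moved these medians to -0.019 and -0.062, so the higher median of receptor regions in GCB depends on the scaling. Of the called regions 63.4% were higher without and 55.3% with quantile normalization.

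Among the families, 15 Olfr regions rose and 10 fell, 3 Vmn1r regions rose and 2 fell, and 8 Vmn2r regions rose and 3 fell from nB to GCB. The largest increase was in a region 20.4 kb from Olfr1414, an odorant receptor, at chr1:94435481-94435921. It measured 0.244, 0 and 0.372 RPM in C nB, 25.1 and 31.4 in C GCB and 0.390, 0 and 0.311 in C BMPC. The region was thus at the floor in nB and BMPC and accessible in both GCB libraries, with a difference of 4.60 ± 0.32 (adjusted p = 9.24e-12) from nB and a fall of 4.57 to BMPC (adjusted p = 5.03e-12). The KO libraries showed the same pattern, with 0 and 0.197 RPM in nB, 20.9, 14.6, 20.6 and 18.2 in GCB and 0.121 and 0 in BMPC.

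A second region near Olfr1414, at chr1:94433546-94433901, gave 0.244, 0.377 and 0.186 RPM in C nB and 25.5 and 16.9 in C GCB, a difference of 4.10 ± 0.34 (adjusted p = 2.33e-10). Both Olfr1414 regions consist wholly of unique 50-base words. The second largest increase was 24.2 kb from Vmn2r89, a type 2 vomeronasal receptor, at chr14:52102568-52103262, where 73.1% of the words were unique. This region rose from 0.731, 0 and 0 RPM in C nB to 18.5 and 22.02 in C GCB (4.14 ± 0.32, adjusted p = 4.68e-11). Unlike the Olfr1414 regions it was also accessible in C BMPC, with 15.5, 36.1 and 22.9 RPM (4.35 ± 0.28 over nB, adjusted p = 4.07e-13).

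The Vmn2r96 region lay 22.3 kb from this type 2 vomeronasal receptor, at chr17:18695281-18696347, with 79.9% unique words. It measured 22.9, 27.1 and 27.9 RPM in C nB, 91.9 and 84.3 in C GCB and 2.34, 2.74 and 2.02 in C BMPC, without overlap between the cell types. The increase from nB to GCB was 1.73 ± 0.23 (adjusted p = 6.58e-07), a ratio of 3.39, and the fall from GCB to BMPC was 4.73 ± 0.23 (adjusted p = 3.14e-15), a ratio of 37.2. The Olfr291 region, 73.5 kb from an odorant receptor at chr7:91927595-91928533, rose from 11.9, 10.9 and 12.1 RPM in C nB to 45.7 and 32.8 in C GCB (1.65 ± 0.24, adjusted p = 2.51e-06). It stayed at 33.8, 31.7 and 36.7 RPM in C BMPC.

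The regions that fell most from nB to GCB were 2 near Olfr266 and 1 near Vmn2r27. The Olfr266 region at chr3:106635064-106635559 measured 9.501, 8.48 and 12.3 RPM in C nB and 2.20 and 1.41 in C GCB (-1.98 ± 0.33, adjusted p = 1.76e-05). The other Olfr266 region, at chr3:106658774-106659362, fell by 1.69 on the log2 scale (adjusted p = 0.000248), but 30.7% of its words were unique. The Vmn2r27 region, at chr6:124099789-124100082, gave 3.65, 5.84 and 6.33 RPM in C nB and 0.880 and 1.87 in C GCB (-1.41 ± 0.39, adjusted p = 0.00499). Its call was lost in 6 alternatives, among them DESeq2 and a pseudocount of 5 RPM.

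Most receptor regions that changed toward BMPC lost accessibility. From nB to BMPC, 21 of the 187 rose and 60 fell in C libraries, and among all regions 18.0% rose and 20.1% fell. From GCB to BMPC, 8 rose and 76 fell, against 11.3% and 19.1% of all regions. With a pseudocount of 5 RPM the 81 and 84 calls became 32 and 25. The median differences were -0.38 and -0.80 on the log2 scale for receptor regions, against 0.027 and -0.057 for all regions. With quantile normalization they were -0.29 and -0.48 against 0.034 and 0.087, so the lower level in BMPC kept its direction under this scaling. Among all regions called from GCB to BMPC, however, 37.2% were higher without and 49.3% with quantile normalization, and among the receptor regions 9.52% and 15.4%.

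The decreases were spread over the Olfr, Vmn1r and Vmn2r families, and the Taar region was not among them. From nB to BMPC 11 Olfr regions rose and 32 fell, 1 Vmn1r region rose and 6 fell, and 9 Vmn2r regions rose and 22 fell. From GCB to BMPC 8 Olfr regions rose and 43 fell, while 12 Vmn1r and 21 Vmn2r regions fell and no region of either family was called higher. Over the 3 comparisons 115 regions (61.5%) were called at least once, against 51.8% of all regions, and 72 never. Of the 187, 48 (25.7%) were lower in BMPC than in both other cell types, against 11.9% of all regions, and 5 (2.67%) were higher in BMPC than in both, against 7.33%. In GCB 18 (9.63%) were higher than in both others, against 5.88%, and 1 (0.535%) was lower, against 1.91%. In nB 13 (6.95%) were higher than in both others, against 5.28%, and 6 (3.21%) were lower, against 7.10%.

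**Figure D2:**
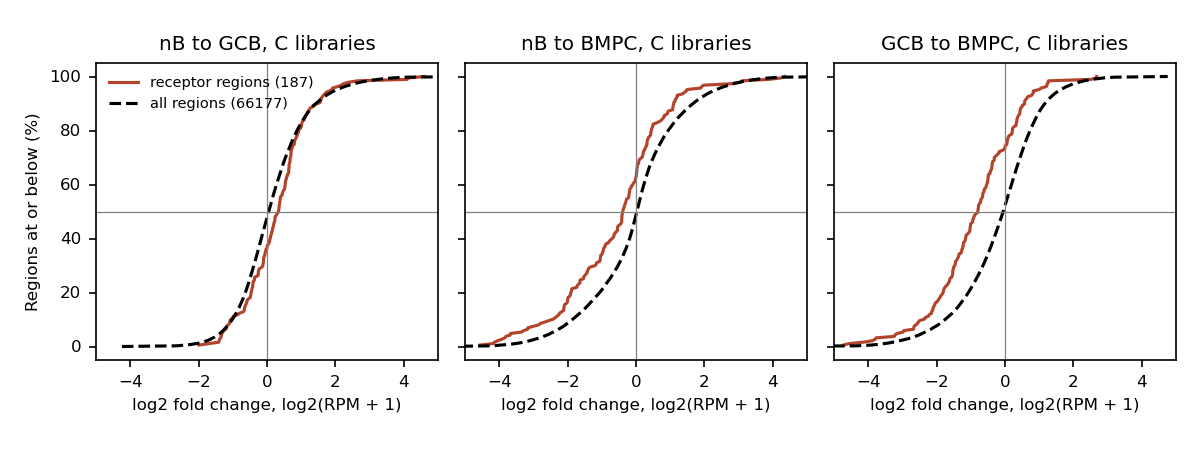
Distribution of the log2 difference of RPM + 1 between cell types in C libraries, as cumulative share of regions, for the 187 receptor regions and all 66177 regions. Each of the 3 panels is a comparison. At the 50% line the receptor curve lies to the left of the curve of all regions in both comparisons with BMPC.

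The largest decreases from nB to BMPC were near Olfr15, Vmn2r26 and Vmn1r33. The Olfr15 region, at chr16:3814514-3815447 and 23.5 kb from this odorant receptor, measured 39.2, 28.1 and 35.2 RPM in C nB, 12.8 and 12.6 in C GCB and 1.04, 0.182 and 0.311 in C BMPC. It was highest in nB, intermediate in GCB and near the floor in BMPC, a difference of -4.57 ± 0.23 between nB and BMPC (adjusted p = 2.44e-15). The Vmn2r26 region, at chr6:123911252-123911947, fell from 32.9, 28.8 and 27.2 RPM in C nB to 1.95, 0.365 and 0.156 in C BMPC (-4.19 ± 0.26, adjusted p = 2.14e-13).

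The Vmn1r33 region, 16.3 kb from a type 1 vomeronasal receptor at chr6:66545653-66546237, was called lower in BMPC and was not called between nB and GCB. It measured 21.0, 19.8 and 20.3 RPM in C nB, 22.9 and 18.3 in C GCB and 0.130, 0.365 and 0.156 in C BMPC. Its difference between nB and GCB was 0.0076 ± 0.26 (adjusted p = 0.985), and it fell by 4.14 from nB to BMPC (adjusted p = 1.97e-14). In KO BMPC it measured 0 and 0.373 RPM.

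The largest increases in BMPC were near 2 odorant receptors and the Vmn2r89 region described above. An exonic region of Olfr157, at chr4:43847377-43848094, measured 0.974, 0 and 0 RPM in C nB, 3.08 and 2.34 in C GCB and 19.4, 29.2 and 20.6 in C BMPC, an increase of 4.24 ± 0.31 from nB (adjusted p = 5.73e-12) and of 2.68 ± 0.35 from GCB (adjusted p = 3.85e-07). The promoter region of the same gene, at chr4:43851588-43852076, had no read in the 3 C nB libraries and 11.4, 17.9 and 12.6 RPM in C BMPC. Its mean was at least 22.6-fold higher in C BMPC than a level of 3 reads per C nB library (limma adjusted p = 2.48e-10). The Olfr281 region, 9.01 kb from its start at chr15:98295752-98296427, also had no read in C nB, 0.440 and 0.468 RPM in C GCB and 7.93, 5.66 and 8.41 in C BMPC, at least 11.9-fold above the floor in nB. Its increase from GCB was 2.50 ± 0.39 (adjusted p = 5.24e-06).

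**Figure D3:**
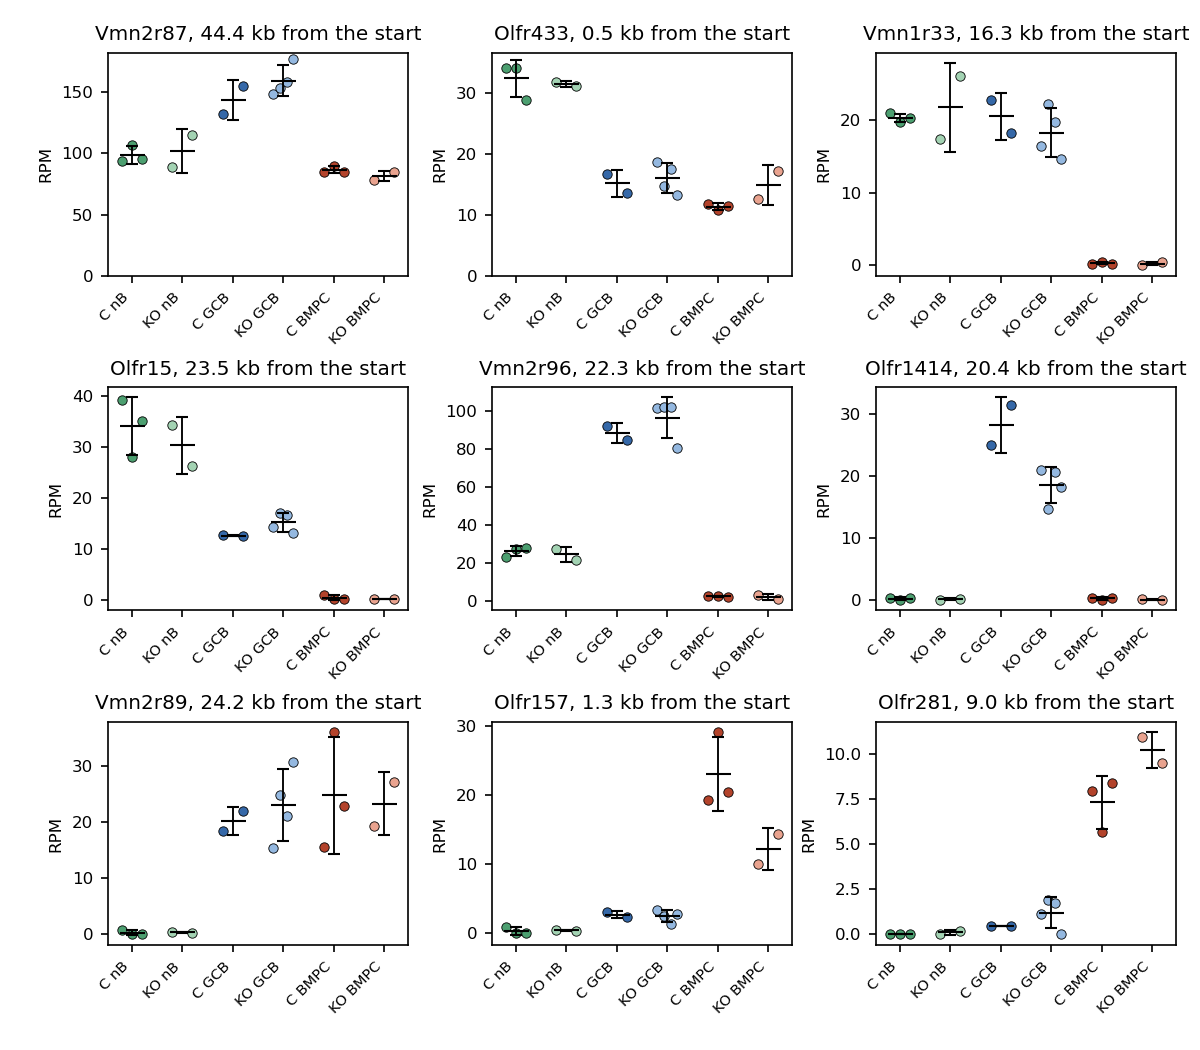
Accessibility of 9 receptor regions in RPM on linear axes, by group. Points are libraries, and bars give the mean and SD. The Olfr1414 region lies between 14.6 and 31.4 RPM in the GCB libraries and at or below 0.390 RPM in the others, the Vmn1r33 region is near 0 in BMPC of both genotypes, and the exonic Olfr157 region is highest in BMPC.

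Promoter regions of receptor genes were few, and the most accessible of those with a promoter annotation or at the start was that of Olfr433, at chr1:175970702-175971546. It measured 34.1, 34.1 and 28.8 RPM in C nB, 16.7 and 13.6 in C GCB and 11.8, 10.8 and 11.4 in C BMPC. The decrease was 1.05 on the log2 scale to GCB (-1.05 ± 0.19, adjusted p = 5.59e-05), a call lost with quantile normalization, with a pseudocount of 5 RPM and without C GCB replicate 2, and -1.43 ± 0.17 to BMPC (adjusted p = 3.42e-08). The region at the start of Olfr1344, at chr7:6362693-6363236, rose from 4.87, 3.58 and 2.05 RPM in C nB to 8.36 and 10.3 in C GCB (1.24 ± 0.32, adjusted p = 0.00221), and this call was lost with quantile normalization, with a pseudocount of 5 RPM, and without C GCB replicate 2 or C nB replicate 3. The Olfr557 region, at chr7:109843879-109844311, fell by 1.18 from GCB to BMPC (adjusted p = 0.0038), a call lost in 5 alternatives that include quantile normalization, and the Olfr658 region, at chr7:111795571-111796073, was called in no comparison.

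The same contrasts were tested in the KO libraries, which are separate samples. From nB to GCB 50 receptor regions rose and 15 fell, against 18.4% and 7.84% of all regions. The count of 65 was 29 without KO nB replicate 1 and 37 without KO nB replicate 2. With quantile normalization 51.2% of the called receptor regions were higher, against 76.9% without it. From nB to BMPC 16 rose and 54 fell, against 18.4% and 16.9%, and from GCB to BMPC 6 rose and 80 fell, against 12.1% and 19.9%. With a pseudocount of 5 RPM the 65, 70 and 86 calls became 19, 33 and 28.

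Of the regions called in C, 32 of 41 (78.0%) were also called in KO from nB to GCB, and these made up 49.2% of the KO calls, which depend on the KO nB libraries as stated, compared with 76.9% and 66.5% for all regions. From nB to BMPC 65 of 81 (80.2%) were called in both, or 92.9% of the KO calls, compared with 79.9% and 86.3%. From GCB to BMPC the overlap was 72 of 84 (85.7%), or 83.7% of the KO calls, compared with 77.8% and 73.9%. The sign in KO was that in C for 40 of 41, 81 of 81 and 84 of 84 regions, and for 99.4%, 99.7% and 99.2% of all regions called in C. The Vmn2r96 region fell by 5.21 from GCB to BMPC in KO (adjusted p = 1.27e-16), with 101, 102, 102 and 80.4 RPM in KO GCB and 2.92 and 0.747 in KO BMPC.

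The comparison of KO with C asked whether accessibility differs without Dnmt3a and Dnmt3b in each cell type. Outside the chromosome 7 interval, limma called no receptor region between KO and C in any cell type. Among all regions 0% were called in nB, 0.0317% (21 regions) in GCB and 0.104% (69 regions, 60 of them higher in KO) in BMPC, so that fewer than 1 of 187 would be called at the rate of all regions. At an unadjusted p under 0.05, 1 receptor region was higher and 2 were lower in nB (1.60% against 1.67% of all regions), 14 were higher and 5 lower in GCB (10.2% against 11.8%), and 3 were higher and 3 lower in BMPC (3.21% against 9.55%). DESeq2 called none in any cell type, and edgeR called none in nB or GCB.

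The median difference of the receptor regions was -0.089 in nB, 0.072 in GCB and 0.027 in BMPC on the log2 scale, against -0.013, 0.032 and 0.028 for all regions. The median SE of a receptor region was 0.36, 0.34 and 0.36, and some regions with fitted differences past 2-fold were not called. A difference of at least 2-fold in either direction was fitted for 0, 6 and 3 of the 187. The difference between genotypes was not called to vary with cell type for any region. Interaction terms called 0% of all regions for GCB against nB, 0% for BMPC against nB and 0% for BMPC against GCB. The unadjusted p was under 0.05 with a positive interaction in 14 receptor regions and a negative one in 3 for GCB against nB (9.09% against 6.21% of all regions), in 1 and 2 for BMPC against nB (1.60% against 5.24%), and in 2 and 5 for the last pair (3.74% against 8.32%).

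**Figure D4:**
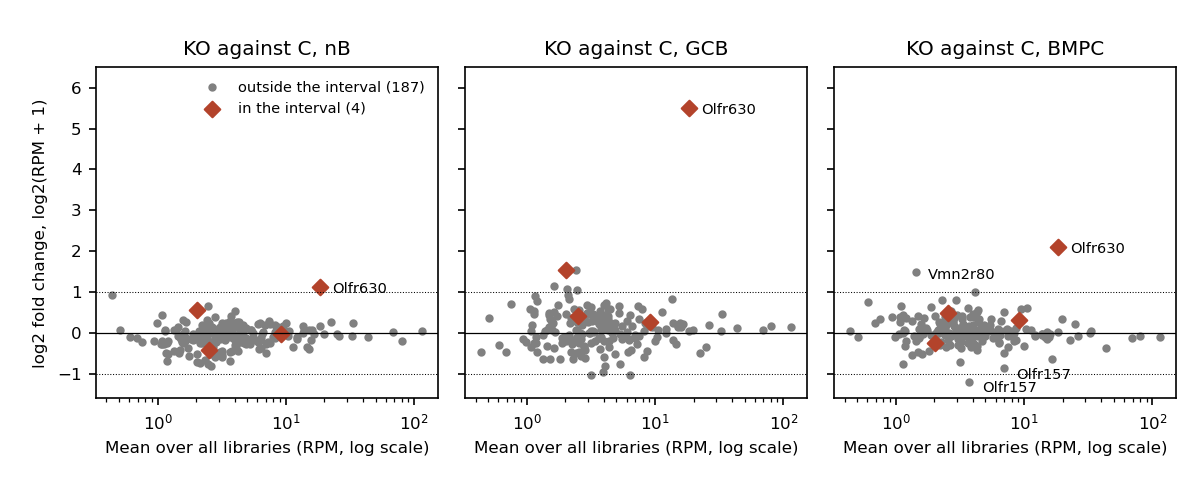
Difference between KO and C (log2 of RPM + 1) against mean RPM (log axis) for the 187 receptor regions outside the chromosome 7 interval (grey) and the 4 inside it (red), in a panel per cell type, with dotted lines at the 2-fold limits. Outside the interval most points lie within the limits in all 3 cell types, and the Olfr630 region in GCB stands apart at 5.51.

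In BMPC the count tests of edgeR, run on whole reads recovered from the RPM values, called receptor regions that limma did not, 3 by the quasi-likelihood test (1.60%, against 1.81% of all regions) and 2 by the likelihood ratio test (against 2.53% of all regions). These regions were chosen after their values were seen. The Vmn2r80 region, at chr10:78626473-78627103 and 14.9 kb from this type 2 vomeronasal receptor, measured 1.30, 0.912 and 2.18 RPM in C BMPC and 5.34 and 6.16 in KO BMPC, without overlap. Its log2 difference was 1.48 ± 0.46 by limma (adjusted p = 0.145) and 1.86 by the quasi-likelihood test of edgeR (adjusted p = 0.00543).

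Both Olfr157 regions that opened in BMPC had lower values in the KO libraries. The exonic region measured 10.1 and 14.4 RPM in KO BMPC against 19.4, 29.2 and 20.6 in C (-0.86 ± 0.35, limma adjusted p = 0.362, and -1.002 with adjusted p = 0.00172 by the quasi-likelihood test). The promoter region measured 5.34 and 5.60 RPM in KO against 11.4, 17.9 and 12.6 in C (-1.19 ± 0.39, limma adjusted p = 0.188, and -1.41 with adjusted p = 0.000184 by the quasi-likelihood test). The KO values lay below all C values in both regions, and both were still above every nB value. The calls of the promoter region and of Vmn2r80 were also made by the likelihood ratio test of edgeR, and that of the exonic region was not.

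In GCB the receptor region outside the interval with the smallest adjusted p was 33.0 kb from Olfr31, an odorant receptor, at chr14:15126769-15127663. It measured 7.04 and 5.62 RPM in C GCB and 14.3, 13.4, 11.8 and 9.09 in the KO GCB libraries, without overlap (0.83 ± 0.21, limma adjusted p = 0.0885). In nB it gave 15.1, 21.5 and 16.0 RPM in C and 16.9 and 17.5 in KO.

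The Olfr49 region, at chr14:54916481-54917617, varied widely within groups. It measured 12.2, 1.32 and 3.16 RPM in C nB, 0.658 and 8.27 in KO nB, 1.69, 19.0 and 5.45 in C BMPC and 0.850 and 18.7 in KO BMPC. The ratio of the highest to the lowest library was 9.24 in C nB, 11.2 in C BMPC and 21.95 in KO BMPC. Only 13.2% of its 50-base words are unique in mm9, and its reads could belong to other copies. Summed levels of the T cell markers were 79.2, 77.4 and 82.1 RPM in C nB, 90.8 and 79.1 in KO nB, 73.4, 80.1 and 73.0 in C BMPC and 60.9 and 59.0 in KO BMPC, and the part of T cells in the Olfr49 values was not tested.

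Genes of the signaling pathways of the same neurons were also examined, each by the region nearest its start. Of 16 genes of olfactory transduction 15 had a region, and the most accessible was Ric8b, which promotes folding of the olfactory G protein, with a mean of 67.8 RPM. From nB to GCB in C, 4 rose and none fell, against 14.2% and 8.47% of all regions. These were Cnga4, a subunit of the cyclic nucleotide-gated channel (3.13 to 7.69 RPM), the exchanger gene Slc24a4 (0.532 to 3.87 RPM), the phosphodiesterase gene Pde1c (19.3 to 43.6 RPM) and Ckb, a creatine kinase (2.52 to 12.0 RPM). From nB to BMPC 3 rose and none fell, against 18.0% and 20.1%, and from GCB to BMPC 2 rose and 3 fell, against 11.3% and 19.1%. Adcy3, the adenylyl cyclase of olfactory neurons, fell from 24.5 RPM in C GCB to 10.9 in C BMPC (-1.10 ± 0.19, adjusted p = 3.04e-05).

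All 4 genes of vomeronasal transduction had a region. Gnao1, the G protein subunit that type 2 receptors use, rose from 0.974 RPM in C nB to 12.7 in C GCB (2.81 ± 0.34, adjusted p = 2.14e-07) and measured 2.53 in C BMPC. Plcb2, a phospholipase, fell from 16.0 RPM in C nB to 6.77 in C GCB and 4.87 in C BMPC (-1.55 ± 0.26 to BMPC, adjusted p = 1.04e-05). Gnai2, which type 1 receptors use and which lymphocytes also express, was the most accessible at a mean of 60.9 RPM and was not called. Trpc2, the ion channel of vomeronasal neurons, measured 1.62, 4.75 and 2.70 RPM in C nB, GCB and BMPC and was not called.

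Regulators of receptor choice and silencing had a region in 20 of 21 cases, and the most accessible was Suv420h2, a histone methyltransferase gene, at a mean of 127 RPM. From nB to GCB 1 rose and 2 fell, from nB to BMPC 2 rose and none fell, and from GCB to BMPC 4 rose and none fell, with the same shares of all regions as given for olfactory transduction. Cbx5, which encodes the heterochromatin protein HP1 alpha, rose from 6.83 RPM in C nB to 15.03 in C GCB and 23.7 in C BMPC (1.66 ± 0.18 to BMPC, adjusted p = 1.32e-08). Kdm1a, a histone demethylase gene needed for receptor choice, rose from 23.6 RPM in C GCB to 51.5 in C BMPC (1.10 ± 0.16, adjusted p = 1.38e-06). Lhx2 was low, at 2.38, 3.16 and 1.71 RPM in C nB, GCB and BMPC, and Ebf1 measured 15.2, 9.20 and 15.5 RPM, neither with a call. No gene of these 3 lists was called between KO and C in any cell type.

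Marker genes were read to check the labelled B cell types. Fcer2a, which encodes the CD23 antigen of naive B cells, measured 42.4 RPM in C nB, 14.3 in C GCB and 1.204 in C BMPC. Tnfrsf17, the plasma cell receptor BCMA, measured 0.392, 1.35 and 19.995 RPM. Of 7 naive B markers 3 fell from nB to GCB, 6 from nB to BMPC and 4 from GCB to BMPC, and none rose, against decreases in 8.47%, 20.1% and 19.1% of all regions. Of 7 germinal center markers 2 rose and 1 fell from nB to GCB, 2 rose from nB to BMPC and 2 fell from GCB to BMPC. Of 7 plasma cell markers none was called from nB to GCB, 2 rose from nB to BMPC and 4 rose from GCB to BMPC, against increases in 14.2%, 18.0% and 11.3% of all regions. Of 7 olfactory neuron markers 6 had a region, 1 rose from nB to BMPC, 1 rose and 2 fell from GCB to BMPC, and none was called from nB to GCB. Omp, the marker of mature olfactory neurons, measured 0.557, 0.440 and 2.19 RPM in C nB, GCB and BMPC.

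Markers of cells outside the B lineage were also read, as the sorts may hold other cells, although the study gated out cells stained for CD11b, CD11c, CD90.2 or Ly6-G. The 4 of 6 T cell markers with a region summed to 79.6 RPM in C nB, 35.9 in C GCB and 75.5 in C BMPC, with Cd3d the most accessible at a mean of 37.4 RPM. The 5 of 7 myeloid markers summed to 22.1, 15.8 and 22.3 RPM, with Csf1r the highest at a mean of 6.97 RPM. The 6 of 10 erythroid markers summed to 76.3, 59.3 and 90.2 RPM, with Klf1 the highest at a mean of 47.2 RPM. In KO GCB the myeloid sums were 29.7, 26.1, 25.9 and 20.3 RPM against 18.0 and 13.6 in C GCB, and the erythroid sums 64.98, 84.0, 76.7 and 85.3 against 55.4 and 63.2, without overlap for either list. The erythroid list includes the globin gene Hbb-b1, whose region lies in the chromosome 7 interval described below. This region averaged 1.13 RPM in C GCB and 17.1 in KO GCB. Its values were 1.32 and 0.937 RPM in C GCB and 8.81, 29.9, 9.21 and 20.3 in KO GCB. Without the Hbb-b1 region the erythroid sums of C and KO GCB overlapped. No gene of these lists was called between KO and C in any cell type. No marker with a region was at 0 in all libraries, and the part of such cells in the receptor values was not tested.

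The chromosome 7 interval held 35 regions, 4 of them of receptors. It contains receptor genes of the cluster around the adult beta globin genes, and the Trim family of antiviral genes beside them. In the comparison of KO with C, 2 of the 35 regions were called higher in GCB and none in nB or BMPC, against 0.0317% of all regions in GCB, 0% in nB and 0.104% in BMPC. Of the 2, 1 was a receptor region. The interval was chosen with earlier results known, so its calls are a description.

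The called receptor region lay 4.86 kb from Olfr630, an odorant receptor, at chr7:110910726-110911857, and its sequence is the tandem repeat shown above. Neither C GCB library had a read in it, whereas the KO GCB libraries measured 48.5, 66.8, 25.4 and 47.5 RPM. The KO GCB mean was at least 34.5-fold higher than a level of 3 reads per C GCB library (limma adjusted p = 0.00178). The call was lost with DESeq2, with a pseudocount of 0.1 RPM, without a variance trend and when either C GCB library was left out. The summed myeloid markers, given above, were also higher in every KO GCB library than in both C GCB libraries. The erythroid sums were so only with the Hbb-b1 region, which belongs to this same interval. The part of such cells in this result was not tested.

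In nB the values of C and KO overlapped, and in BMPC both KO values lay above the C values. The Olfr630 region measured 13.2, 16.6 and 0 RPM in C nB and 10.5 and 15.4 in KO nB, and 9.88, 5.84 and 0 in C BMPC and 18.5 and 16.1 in KO BMPC. The third C nB and the third C BMPC library were thus at 0 while the other libraries of the same groups were not. The difference was 1.13 ± 0.78 in nB (adjusted p = 1) and 2.11 ± 0.78 in BMPC (adjusted p = 0.272). Without the third C nB library it was -0.20 in nB. The difference in BMPC likewise includes a C library at 0, and would be smaller without that library.

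The other 3 receptor regions of the interval were not called between genotypes. The promoter region of Olfr67, at chr7:110941492-110941788, gave 0.440 and 0.937 RPM in C GCB and 1.10, 10.2, 2.63 and 5.59 in the KO GCB libraries (1.54 ± 0.51, adjusted p = 0.209). It had 2.19, 2.83 and 0 RPM in C nB, again with no read in the third library. The Olfr633 region, at chr7:111091227-111091424, gave 5.28 and 2.34 RPM in C GCB and 3.30, 5.09, 6.14 and 6.29 in the KO GCB libraries (0.41 ± 0.39, adjusted p = 0.727). The Olfr649 region, at chr7:111348307-111348831, gave 7.48 and 7.03 RPM in C GCB, 8.81, 9.55, 10.5 and 6.99 in the KO GCB libraries (0.26 ± 0.24, adjusted p = 0.709), and 12.4, 13.6 and 9.68 in C nB. The values of Olfr633 and Olfr649 overlapped between the genotypes.

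Single libraries differed across the interval as a whole. The median of the 35 regions was 6.58, 7.72 and 1.86 RPM in C nB, 7.24 and 7.87 in KO nB, 1.76 and 1.87 in C GCB, 4.41, 8.27, 6.14 and 6.29 for KO GCB, 4.42, 3.65 and 0.311 in C BMPC and 4.86 and 5.23 in KO BMPC. The third C nB, both C GCB and the third C BMPC libraries were thus the lowest of the 16. The number of regions with at most 3 reads was 3, 2 and 14 in C nB, 2 and 3 in KO nB, 17 and 13 in C GCB, 14, 4, 6 and 6 for KO GCB, 4, 13 and 21 in C BMPC and 6 and 9 in KO BMPC.

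In these 4 C libraries, singled out after their values were seen, 5 regions of the interval had no read at all. They were the only 5 of the 66177 regions without a read in all 4. At most 3 reads in each of the 4 were found in 11 regions of the interval, 2 of them receptor regions, and in 421 regions of the whole table. Of the 421, 56 had over 3 reads in both other C nB libraries, and 10 of the 56 lay in the interval. Of the 11 regions of the interval, 10 had over 3 reads in both other C nB libraries and 10 in both KO nB libraries, and 7 had over 3 reads in both other C BMPC libraries. All 4 were C libraries, and the other 4 C libraries and the 8 KO libraries had interval medians of at least 3.65 RPM. In GCB both C libraries were among the 4, so that genotype and this pattern cannot be told apart there, and its cause was not tested.

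**Figure D5:**
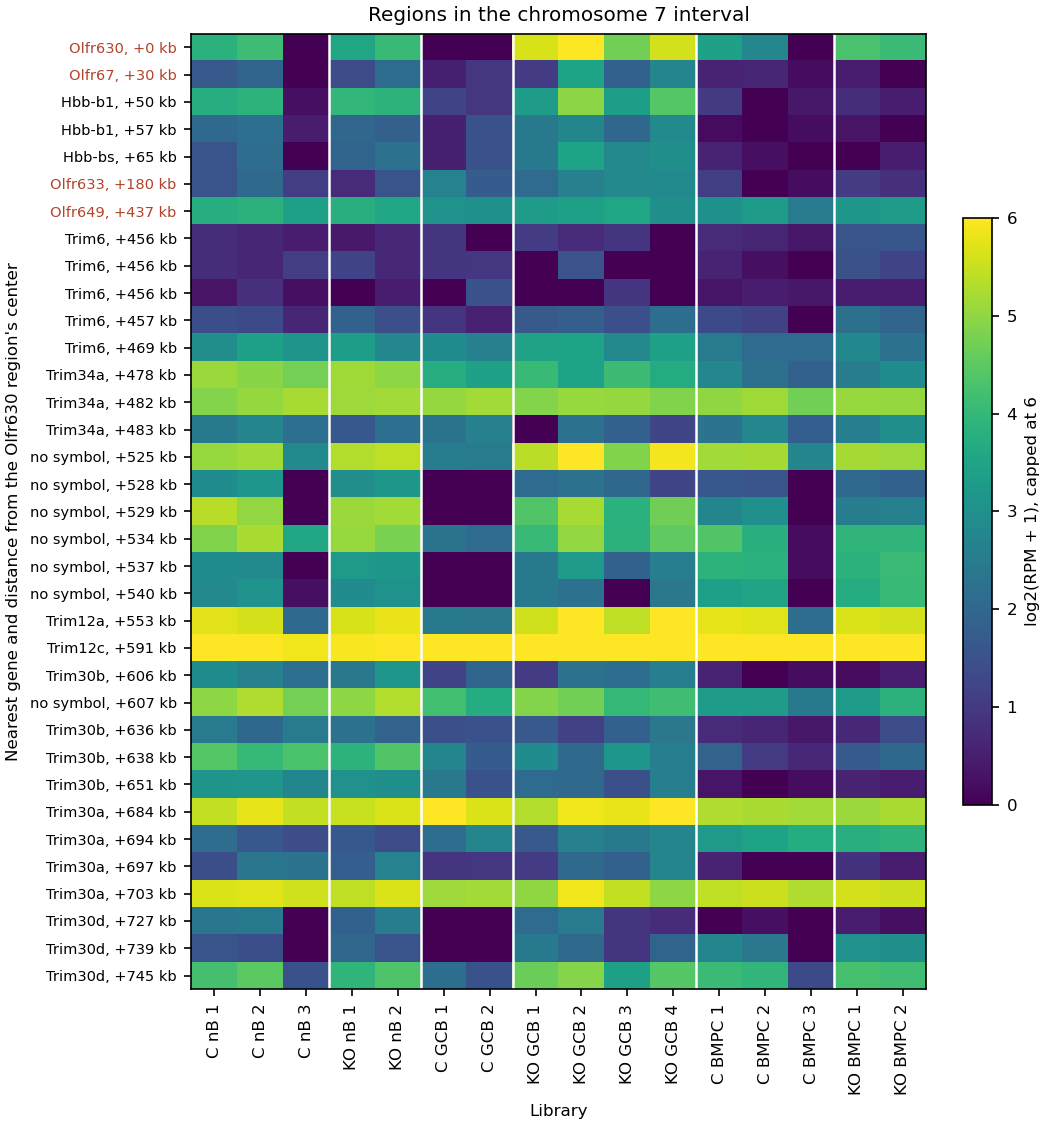
Accessibility of the 35 regions of the chromosome 7 interval in the 16 libraries, as log2(RPM + 1), from 0 (dark) to 6 or more (yellow), with regions in genomic order, receptor regions named in red, and libraries by group. The third C nB, both C GCB and the third C BMPC libraries are dark in the same regions, including that of Olfr630.

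The mice are of mixed B6;129S4 background, and strain alleles were not typed here. Around the interval, the Olfr243 region, the nearest receptor region before it at chr7:110860499-110860899, gave 1.32 and 1.41 RPM in C GCB and 2.20, 15.3, 4.82 and 6.29 in the KO GCB libraries (1.54 ± 0.44, adjusted p = 0.14). It had 1.22, 1.51 and 0.186 RPM in C nB. The Olfr655 region, the nearest after it, gave 8.80 and 7.96 RPM in C GCB and 5.51, 11.5, 4.38 and 10.5 in the KO GCB libraries. The Olfr658 region, the next, gave 4.84 and 4.22 RPM in C GCB and 6.61, 4.46, 3.95 and 6.29 in the KO GCB libraries. The values of both overlapped between the genotypes.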

How the data were processed

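ATAC-seq values of 16 mouse libraries were analysed, grouped by the cell type and genotype of the labels. The KO BMPC replicate 3 of the labels was not analysed here. Per the labels, the authors used Bowtie 1.1.1, Picard 1.127, MACS2 2.1.0.20140616 and edgeR 3.12.1 with mm9 (the study's methods name other versions of Bowtie and MACS2), joined the peaks of all samples, and deposited RPM values, the reads in a region per 1000000 reads in regions. The table also holds the authors' fold changes and p-values for 9 comparisons, which were not used.

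RPM values were whole multiples of the smallest step in each library for 100% of 1058832 values (tolerance 0.001), which gave the reads for the count tests. Reads are not independent molecules, so floors cover counting error only. The study gives as many mice as there are nB and BMPC libraries here, and pools of mice for GCB, and p-values measure the spread between these libraries.

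Regions were tested in R 4.3.3 with limma 3.58.1, on log2(RPM + 1) and with a mean for each of the 6 groups, a variance trend and adjustment over all 66177 regions. Calls required an adjusted p of at most 0.01 and 2-fold. The fits were tested on simulated counts in which 200 regions with a mean over 1 RPM changed 4-fold in KO. Limma called 76.5% of these in nB, 81.5% in GCB and 72.5% in BMPC. The likelihood ratio test of edgeR called 96.5%, 82.5% and 98%. False calls numbered 0, 8 and 0 with limma and 7, 1 and 8 with edgeR. Alternatives were pseudocounts of 0.1 and 5 RPM, a mean of at least 1 RPM, TMM scaling, quantile normalization, no trend, a fit of the compared groups only, a threshold of 0.05 for the adjusted p, edgeR 4.0.16, DESeq2 1.42.0, a replicate block and each library left out. Counts restricted to members with at least 90% unique words, or whose nearest transcript is the receptor's, were added after the data were seen.

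Members and lists were chosen with earlier results of these data known. Regions were named if inside the chromosome 7 interval, if called between genotypes, if among the 3 largest called increases or decreases without overlap in each C comparison, if among the 5 highest means, or if among the 5 highest promoter regions. The regions of Vmn2r80, Olfr31, Olfr49, Olfr243 and Olfr655 fall outside this rule and were chosen after their values were seen. Positions are those of the table, taken as 1-based, and sequences were read from NCBIM37, which is mm9, with GENCODE vM1 genes. Python 3.11.15, pandas 2.3.3, numpy 2.4.6 and matplotlib 3.10.9 were used. Some items are not reported here.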

Additional observations from a re-analysis of the deposited data

Results flagged for a closer look

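The Vmn2r96 region at chr17:18695281-18696347 measured 101, 102, 102 and 80.4 RPM in the KO GCB libraries, and the lowest library stood apart from the other 3. The gap to its neighbour divided by the range was 0.976, above the limit of 0.829 for 4 libraries. Of 26 such groups tested this was the only one beyond the limit, and chance places about 1 in 20 beyond it.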

How the results depend on the processing

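Among the alternatives, a pseudocount of 5 RPM lowered the counts of receptor regions called between cell types most. With 5 RPM in place of 1 the called receptor regions outside the interval numbered 13 from nB to GCB, 32 from nB to BMPC and 25 from GCB to BMPC in C, and 19, 33 and 28 in KO. With 1 RPM, the counts among the 120 members with at least 90% unique words were 25, 50 and 55 in C and 38, 43 and 55 in KO. Among all 187 members, from nB to GCB in KO, quantile normalization gave 43 and a fit of the compared groups only 40. With each library of the compared groups left out in turn the counts ranged from 25 (without C GCB replicate 2) to 34 from nB to GCB, from 70 to 78 from nB to BMPC and from 60 to 78 from GCB to BMPC in C. In KO they ranged from 29 (without KO nB replicate 1, and 37 without KO nB replicate 2) to 65, from 50 to 55 and from 61 to 84. Over all 16 libraries the highest counts were 48, 85 and 89 in C and 65, 79 and 87 in KO. Between genotypes no receptor region outside the interval was called when any library was left out, and edgeR in BMPC called 3 by the quasi-likelihood and 2 by the likelihood ratio test.

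In the interval the 2 regions called became 0 with a pseudocount of 0.1 RPM, without a variance trend and with DESeq2, 1 with a pseudocount of 5 RPM and with the quasi-likelihood test, 7 with the compared groups only and with the likelihood ratio test, and 5 at an adjusted p of at most 0.05. With each library left out they ranged from 0 (either C GCB library) to 5 (C nB replicate 3 or C BMPC replicate 3). The cause was not tested. The difference between genotypes changed sign with single libraries left out. In nB it ranged from -0.20 to 1.87 for Olfr630 and from -0.044 to 0.92 for Olfr67, each lowest without C nB replicate 3, and from -0.15 to 0.097 for Olfr649, positive without C nB replicate 1 (0.016), C nB replicate 2 (0.074) or KO nB replicate 2. In GCB it ranged from -0.047 (without C GCB replicate 2) to 0.86 for Olfr633.

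GCB pools of both genotypes bear the names F2 and M1. Their deviations from the group means correlated at 0.0363 for F2 and 0.0638 for M1, and at -0.0638 and -0.0363 for unlike names. As C GCB has 2 libraries, their deviations mirror each other. The check therefore cannot decide whether the names pair the libraries. With the replicate block 0 receptor regions outside the interval and 1 in the interval were called in GCB. Depth limits regions near the floor, above all in GCB.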
